A study of Homo sapiens with 12 samples.

Results

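The comparison set hTERT-RPE1 cells treated with reversine and then washed against cells treated for some hours with bafilomycin A1 (BafA1). Neither chromosome content nor lysosomal pH was measured in the data used here. The comparison used 6 of the 12 RNA sequencing libraries of the series, 3 for each treatment, chosen by the treatment that the labels name. hTERT-RPE1 is a human retinal pigment epithelial cell line immortalised with telomerase. Reversine cells had received 0.5 µM reversine for 24 h, were then washed, and were harvested 48 h after the wash. BafA1 cells had received 0.1 µM BafA1 for 6 h. The other 6 libraries, 3 of cells in 1 µM MG132 for 24 h and 3 of untreated control cells, entered the fit to estimate the spread, and the controls also show on which side of untreated cells each treatment lay. The labels name no vehicle, no time point for the controls and no separate cultures within a group, so the p-values describe no more than how these libraries spread. Drug, length of exposure and time since the drug was removed differ together between the groups and cannot be told apart. In bulk RNA, fewer cells expressing a gene and less RNA per cell cannot be told apart either.

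Reversine inhibits Mps1 (TTK), a kinase of the spindle assembly checkpoint, so that cells leave mitosis before all chromosomes are attached and daughters can become aneuploid. Human cells with intact p53 often stop cycling after such divisions and express p53 targets such as the CDK inhibitor p21. BafA1 inhibits the V-ATPase, the proton pump of endosomes and lysosomes. Acid endosomes free iron from transferrin. Acid lysosomes release cholesterol from imported LDL and break down the contents of autophagosomes. Sterol shortage in the endoplasmic reticulum is known to activate SREBP factors, which induce genes of sterol synthesis and uptake.

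Promoters of 4 called genes, from the replication, mitosis, cholesterol and hypoxia lists, are shown because each holds a motif known from genes of its list. RefSeq promoters (GRCh38.p14) from 250 bases before to 50 bases after the start of a gene were searched on both strands, and 27305 promoters of this length served as the background. E2F factors bind TTTCCCGC or TTTGGCGC in promoters of replication genes. Either motif stood in 20 of 39 matched promoters of DNA replication genes (51.3%) and in 5 of 13 of those called (38.5%), against 2.31% of all promoters. TTTGAA, the CHR element of genes expressed in mitosis, stood in 29 of 44 promoters of the mitosis list (65.9%) and in 9 of 18 of those called (50%), against 15.4% of all. CCAAT, bound by NF-Y, stood in 16 of 23 promoters of the cholesterol list (69.6%) and in 8 of 9 of those called (88.9%), against 35.7% of all. It was as frequent in the mitosis list (31 of 44, 70.5%), and stood in 23 of 39 promoters of the replication list (59%) and in 59.7% of the matched promoters of all genes called lower. The core ACGTG of the hypoxia response element stood in 11 of 25 promoters of the hypoxia list (44%) and in 3 of 8 of those called (37.5%), against 21.6% of all. The sterol response element TCACNCCAC was in 1 of the 23 cholesterol promoters (4.35%), in 0 of the 9 of called genes and in 1.15% of all promoters. CLEAR, TCACGTGA, read by TFEB and TFE3, was in 4 of 33 promoters of lysosomal hydrolases (12.1%) and in 1.04% of all. CLEAR contains ACGTG, so each of its matches is also a match of that shorter motif. A match is only a match of letters. The promoters of MCM3 (chr6:52284693-52284992, minus strand, E2F motif in capitals), PRC1 (chr15:90994486-90994785, minus strand, CHR in capitals), INSIG1 (chr7:155297628-155297927, plus strand, CCAAT read on the other strand, in capitals) and DDIT4 (chr10:72273674-72273973, plus strand, ACGTG in capitals) read 5′ to 3′ along the gene:
MCM3: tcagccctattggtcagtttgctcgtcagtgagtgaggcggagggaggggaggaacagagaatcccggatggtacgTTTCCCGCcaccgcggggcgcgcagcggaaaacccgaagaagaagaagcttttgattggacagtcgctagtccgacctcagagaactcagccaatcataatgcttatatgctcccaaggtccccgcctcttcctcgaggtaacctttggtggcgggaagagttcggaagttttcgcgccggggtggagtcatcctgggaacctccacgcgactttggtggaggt
PRC1: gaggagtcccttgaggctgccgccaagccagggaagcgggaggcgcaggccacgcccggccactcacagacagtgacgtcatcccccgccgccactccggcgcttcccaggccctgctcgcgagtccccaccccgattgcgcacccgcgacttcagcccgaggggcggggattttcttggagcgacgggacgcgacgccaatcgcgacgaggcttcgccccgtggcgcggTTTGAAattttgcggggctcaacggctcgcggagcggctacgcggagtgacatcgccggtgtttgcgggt
INSIG1: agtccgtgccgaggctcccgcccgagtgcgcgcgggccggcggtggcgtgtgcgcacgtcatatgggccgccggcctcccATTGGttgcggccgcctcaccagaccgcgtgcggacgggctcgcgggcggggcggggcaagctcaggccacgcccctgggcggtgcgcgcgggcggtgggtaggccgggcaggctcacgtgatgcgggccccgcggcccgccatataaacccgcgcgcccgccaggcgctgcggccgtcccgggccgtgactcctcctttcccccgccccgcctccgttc
DDIT4: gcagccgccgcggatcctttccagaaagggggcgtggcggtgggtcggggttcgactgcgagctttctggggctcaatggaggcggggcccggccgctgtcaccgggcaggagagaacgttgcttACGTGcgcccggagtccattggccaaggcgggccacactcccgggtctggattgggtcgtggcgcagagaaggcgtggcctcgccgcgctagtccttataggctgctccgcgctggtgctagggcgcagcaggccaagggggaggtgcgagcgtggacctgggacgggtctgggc

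Values are FPKM, that is fragments scaled to transcript length and to the mapped total, and read counts are unknown. Means are given ± SD over 3 libraries. A total of 30712 of 53361 genes had at least 1 FPKM in 3 or more of the 12 libraries and were tested. Differences are of log2(FPKM + 1), reversine minus BafA1, which understates changes of genes with low values, and a gene was called at a limma adjusted p under 0.05. Rose and fell mean higher and lower after reversine than after BafA1, and do not give the direction against control. Depth as a share of that of the deepest library, read off the lowest values, was 0.736 to 0.917 after reversine and 0.607 to 0.762 after BafA1. Reversine 1 stood apart. Over protein-coding genes of at least 5 FPKM its median absolute log2 difference was 0.474 from reversine 2 and 0.515 from reversine 3, which were 0.134 apart, and its values fell with transcript GC content. BafA1 3 did so less, 0.289 and 0.295 from BafA1 1 and BafA1 2, which were 0.124 apart. Reversine 1 was nearer to BafA1 3 (0.376), MG132 3 (0.4115) and MG132 2 (0.43) than to the other libraries of its own group. The values of MG132 2 and MG132 3 also fell with GC content. The top 10 genes of BafA1 2 took up 42.9% of its summed FPKM, against 13.7% to 23.2% in the other 5 libraries. Rows named as ribosomal RNA held 21.46% of it, against 2.76% to 8.77% in the other 5. The sum itself was 2.058e+06 FPKM, against 1.033e+06 to 1.444e+06 FPKM. Setting every library to the same total, an alternative given below, therefore scales BafA1 2 down most. Of the markers of pigment epithelium, RPE65, TYR, DCT and TTR were under 1 FPKM in all 12 libraries. PMEL, MITF, OTX2, SERPINF1, KRT8 and KRT18 averaged over 5 FPKM across the 6 libraries compared, and the other tested members did not. The marker lists of blood, endothelium and other epithelia summed to at most 15.01 FPKM in each of the 6 libraries. The neuronal list summed to 230.1 to 498 FPKM after reversine, 462 to 654 FPKM after BafA1 and 92.97 to 762 FPKM in controls. Most of the neuronal sum was TUBB3, but RBFOX3, GAD1, MAP2 and SYT1 also averaged over 5 FPKM across the 6 libraries compared. Of the tested members of these 5 marker lists 0 were called by limma, and 2 pigment epithelium markers were higher after reversine at an unadjusted p under 0.05.

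Between reversine and BafA1, 377 genes were called (1.23% of those tested), 136 higher (0.443%) and 241 lower (0.785%) after reversine. Protein-coding genes made up 344 of them, 2.42% of 14194 tested. These shares, 1.23% of all tested and 2.42% of protein-coding genes, are the background for every list count of calls in this comparison. Lists with only 1 or 2 calls are described and not read as results about the list. At an unadjusted limma p under 0.05 there were 2295 of all 30712 tested genes in either direction. That is the background for every unadjusted count of this comparison. The 3 reversine libraries lay wholly on one side of the 3 BafA1 libraries for all 377. This largely follows from calling them on the same libraries and is no separate support. Over all tested genes it held for 4.08% with reversine above and 7.83% with reversine below. At least 2-fold differences, on the log2(FPKM + 1) scale, made up 230 of the calls, 67 higher and 163 lower. The largest differences upward were in SERPINB2, IL8, CCL3 and GDF15, and downward in INSIG1, C21orf58, CA9 and PFKFB4. Over all tested genes the median difference was −0.14 on the log2 scale. With median-ratio scaling the calls divided into 172 higher and 170 lower, 50.3% higher against 36.1% in the deposited values, and with every library set to the same total into 40 and 9. Leaving out a single library gave 317, 188 and 209 calls without reversine 1, 2 and 3, and 142, 167 and 194 without BafA1 1, 2 and 3. Fitted on the 6 libraries alone, 2 genes were called, BMP2 and SERPINB2, with 1976 at an unadjusted p under 0.05, so the calls rest on a spread estimated over all 4 groups. With every library set to the same total, the counts in the main lists below were 1 for DNA replication, 2 for mitosis, 7 for p53 targets, 4 for inflammatory genes, 2 for cholesterol, 0 for fatty acids and 1 for hypoxia, against 14, 22, 7, 8, 13, 10 and 8 in the deposited values. With values corrected within libraries for GC content and transcript length, the same counts were 1, 7, 3, 1, 5, 1 and 4. With that trend taken from genes of at least 5 FPKM, chosen after seeing the data, they were 25, 33, 16, 13, 20, 11 and 14.

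**Figure D1:**
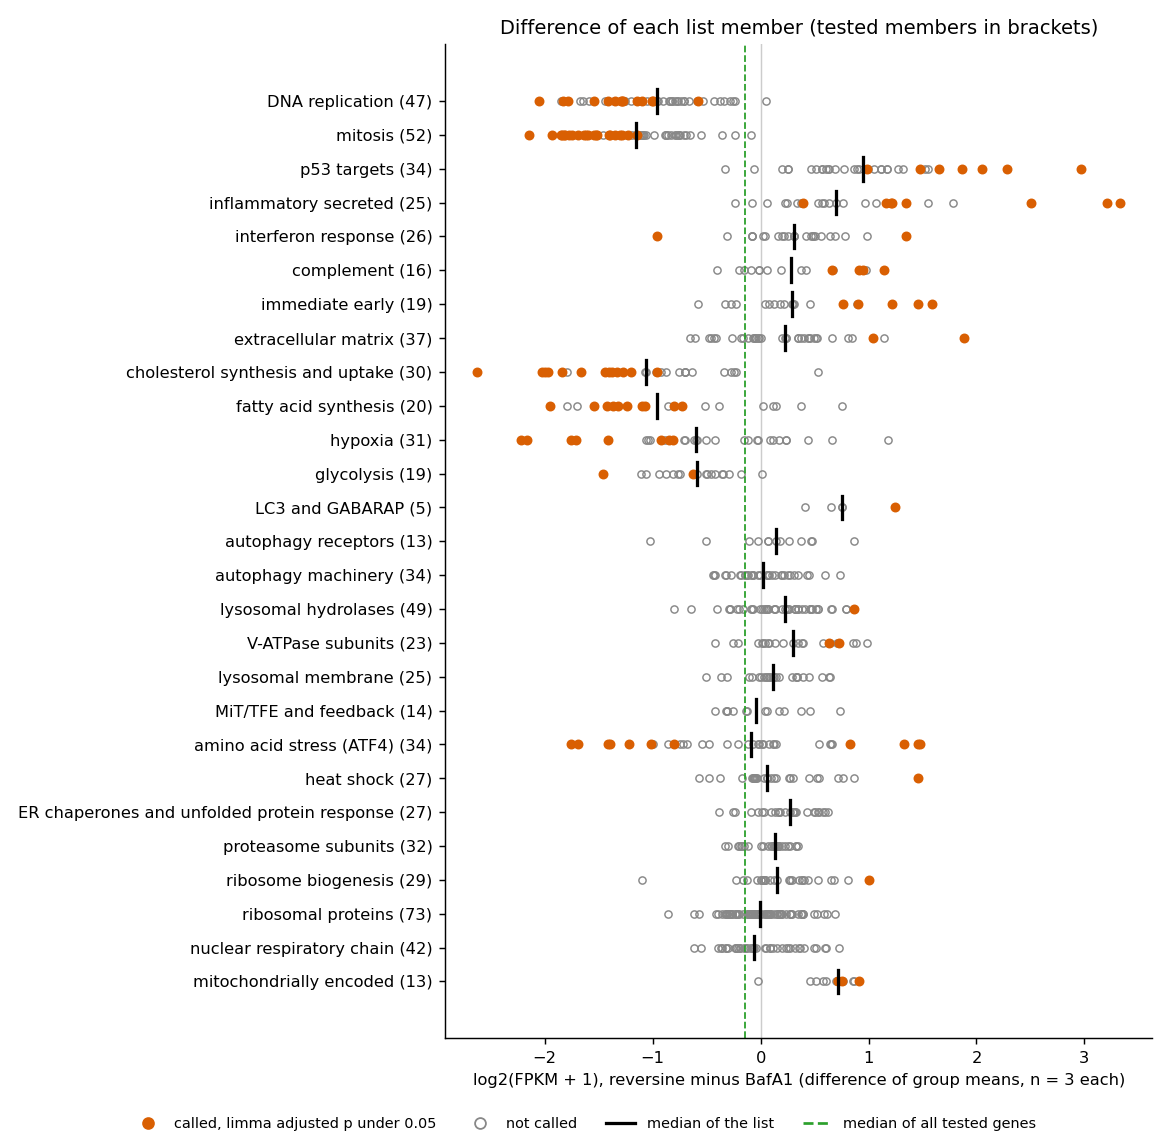
Each point is 1 tested member of a gene list, and the horizontal axis is the log2(FPKM + 1) difference, reversine minus BafA1. Replication, mitosis, sterol and fatty acid genes lie to the left (medians −0.96, −1.15, −1.06 and −0.96) and p53 targets and inflammatory genes to the right (0.95 and 0.70). Medians of the autophagy receptor, autophagy machinery and lysosome lists lie between −0.04 and 0.30, and that of LC3 and GABARAP genes at 0.75.

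Cell cycle genes were the largest block among the lists, and all called members of the DNA replication and mitosis lists were lower after reversine. Of 47 DNA replication genes, 14 fell, 0 rose and 33 did not pass, with a median of −0.96. Of 52 mitosis genes, 22 fell, 0 rose and 30 did not pass, with a median of −1.15. The list medians were −1.39 and −1.11 for reversine minus control, and −0.42 and 0.05 for BafA1 minus control. Against control, 27 replication and 22 mitosis genes were called lower after reversine (background 1.29%), while 0 of either list was called in either direction after BafA1 (background 0.202% higher and 0.0619% lower), and these comparisons share the same 3 controls. At an unadjusted limma p under 0.05, BafA1 minus control had 16 replication genes lower, and 1 mitosis gene higher and 3 lower. The number over all tested genes at that threshold was not counted for this comparison.

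RRM2 (ENSG00000171848), the small subunit of ribonucleotide reductase, had 62.4, 72.3 and 61.04 FPKM in the reversine libraries, 244, 242 and 219 FPKM in the BafA1 libraries and 351, 324 and 312 FPKM in the controls (log2 difference −1.83, SE 0.12, limma adjusted p 0.000296). All reversine libraries were below all BafA1 libraries, and these in turn were below every control. MCM3 (ENSG00000112118), a subunit of the replicative helicase whose promoter is printed above, had 24.2, 23.9 and 25.4 FPKM after reversine, 65.2, 65.6 and 60.7 FPKM after BafA1 and 89.7, 90.7 and 90.03 FPKM in untreated cells (log2 difference −1.34, SE 0.11, limma adjusted p 0.000579). The 3 groups were again fully separate. The helicase subunits MCM2 and MCM4 (−1.42 and −1.28), thymidine kinase TK1 (−1.79), DNA ligase LIG1 (−1.15) and the origin factor CDC45 (−1.30) fell too, with limma adjusted p of 0.00396, 0.00215, 0.000786, 0.00507 and 0.00512. PCNA, the sliding clamp of the replication fork, did not (73.2 ± 16.1 FPKM after reversine and 87.2 ± 21.6 FPKM after BafA1, log2 difference −0.24, SE 0.30, limma adjusted p 0.948). Without BafA1 1 or BafA1 2, 7 and 8 replication genes were called, 9 without reversine 2, and 9 without reversine 1 and BafA1 3 together.

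Among mitosis genes, PRC1 (ENSG00000198901), which bundles the microtubules of the central spindle, had 54.98, 66.8 and 63.5 FPKM in the reversine libraries, 208, 186 and 179.6 FPKM in the BafA1 libraries and 255, 229 and 301 FPKM in the controls (log2 difference −1.62, SE 0.12, limma adjusted p 0.000509). FOXM1, the transcription factor that drives many genes of this phase, had 43.6, 37.2 and 34.8 FPKM after reversine, 109, 110.5 and 138 FPKM after BafA1 and 120.1, 129 and 125 FPKM in untreated cells (log2 difference −1.60, SE 0.12, limma adjusted p 0.000532). In both genes every reversine library was far below the lowest BafA1 value, and for FOXM1 the BafA1 and control libraries overlapped. SPC24, a subunit of the kinetochore complex NDC80, differed most in the list (6.59 ± 1.07 FPKM after reversine and 32.3 ± 0.985 FPKM after BafA1, log2 difference −2.14, SE 0.18, limma adjusted p 0.000714). Cyclin CCNB2 (−1.82), the phosphatase CDC25B (−1.28), the kinase AURKB (−1.63) and the condensin subunit NCAPD2 (−1.53) fell as well, with limma adjusted p of 0.00241, 0.00137, 0.00532 and 0.00352. CDC20, an activator of the anaphase-promoting complex, had 56.4 ± 17.2 FPKM after reversine and 199 ± 20.4 FPKM after BafA1 (log2 difference −1.85, SE 0.27, limma adjusted p 0.012), and it lost its call without BafA1 1 (0.0686) or BafA1 2 (0.0587). The kinesin KIF18B (−2.06) and SAPCD2 (−2.06), outside the list and among the 8 lowest genes, lost theirs without the same libraries (0.0705 and 0.0593 for KIF18B, 0.0685 and 0.0572 for SAPCD2). Counts in the list were 11 without BafA1 1 and 15 to 19 without any other single library, with 15 without reversine 1 and BafA1 3.

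TTK, the target of reversine, was not called. It had 7.89, 4.94 and 4.33 FPKM in the reversine libraries, 7.78, 8.93 and 14.96 FPKM in the BafA1 libraries and 7.13, 8.64 and 7.13 FPKM in the controls (log2 difference −0.77, SE 0.40, limma adjusted p 0.858), and the groups overlapped. MKI67, a marker of cycling cells, had 11.6, 3.73 and 3.15 FPKM after reversine, 11.1, 11.04 and 14.5 FPKM after BafA1 and 8.20, 10.4 and 8.74 FPKM in untreated cells (log2 difference −1.06, SE 0.45, limma adjusted p 0.623). Reversine 1 lay among the BafA1 libraries and reversine 2 and 3 lay below them. The transcript level of TTK is no check of the treatment, since reversine acts on the protein.

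The p53 targets moved the other way. Of 34 tested, 7 were called higher after reversine, 0 lower and 27 neither, with a median of 0.95 beside −0.14 for all genes. Its medians were 0.90 for reversine minus control and −0.07 for BafA1 minus control. CDKN1A (ENSG00000124762), which encodes p21, had 618, 1198 and 1082 FPKM in the reversine libraries, 223, 199 and 156 FPKM in the BafA1 libraries and 215, 189 and 253 FPKM in the controls (log2 difference 2.28, SE 0.29, limma adjusted p 0.00534). Reversine 1 was the lowest of its group and still above all BafA1 and control libraries, which overlapped each other. GDF15 (ENSG00000130513), a secreted stress factor induced by p53 and by the integrated stress response, had 6.33, 12.7 and 12.7 FPKM after reversine, 0.47, 0.58 and 0.24 FPKM after BafA1 and 0.57, 0.33 and 0.36 FPKM in untreated cells (log2 difference 2.97, SE 0.25, limma adjusted p 0.000714), with all BafA1 and control libraries under 1 FPKM. BTG2, an antiproliferative gene, had 16.7, 17.1 and 18.02 FPKM in the reversine libraries, 3.59, 3.67 and 2.98 FPKM in the BafA1 libraries and 3.17, 3.26 and 3.12 FPKM in the controls (log2 difference 2.05, SE 0.18, limma adjusted p 0.000768), and its reversine libraries stood apart from both other groups.

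SESN2, a stress-induced regulator of mTORC1, rose by 1.48 (SE 0.16, limma adjusted p 0.0028). GADD45A, which acts in growth arrest, had 168 ± 47.9 FPKM after reversine, 44.5 ± 8.71 FPKM after BafA1 and 79.1 ± 5.50 FPKM in controls (log2 difference 1.86, SE 0.27, limma adjusted p 0.0114). BafA1 lay below every control, a difference that did not pass (log2 −0.83, limma adjusted p 0.472). Leaving out reversine 2 (0.056) or reversine 3 (0.0511) ended its call. The ubiquitin ligase gene MDM2, a classical p53 target, was not called at 114, 63.1 and 62.4 FPKM in the reversine libraries, 32.8, 30.9 and 41.8 FPKM in the BafA1 libraries and 30.7, 27.6 and 37.6 FPKM in the controls (log2 difference 1.11, SE 0.45, limma adjusted p 0.576). No reversine library overlapped BafA1, but reversine 1 was far above the other 2. The list count was 4 without reversine 2 or reversine 3, 5 without any of the BafA1 libraries, 8 without reversine 1 and 6 without reversine 1 and BafA1 3. FDXR and SESN1 also rose (1.65 and 0.99, limma adjusted p 0.043 and 0.0419), and both calls were lost without several libraries (FDXR 0.0985 to 0.174, SESN1 0.0715 to 0.19). Among the cyclins D and CDK inhibitors, CDKN1A rose, CDKN2D fell (log2 −1.47, limma adjusted p 0.0298), and 13 of 15 did not pass. The call of CDKN2D was lost without reversine 2 and without each BafA1 library (0.0771 to 0.144).

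**Figure D2:**
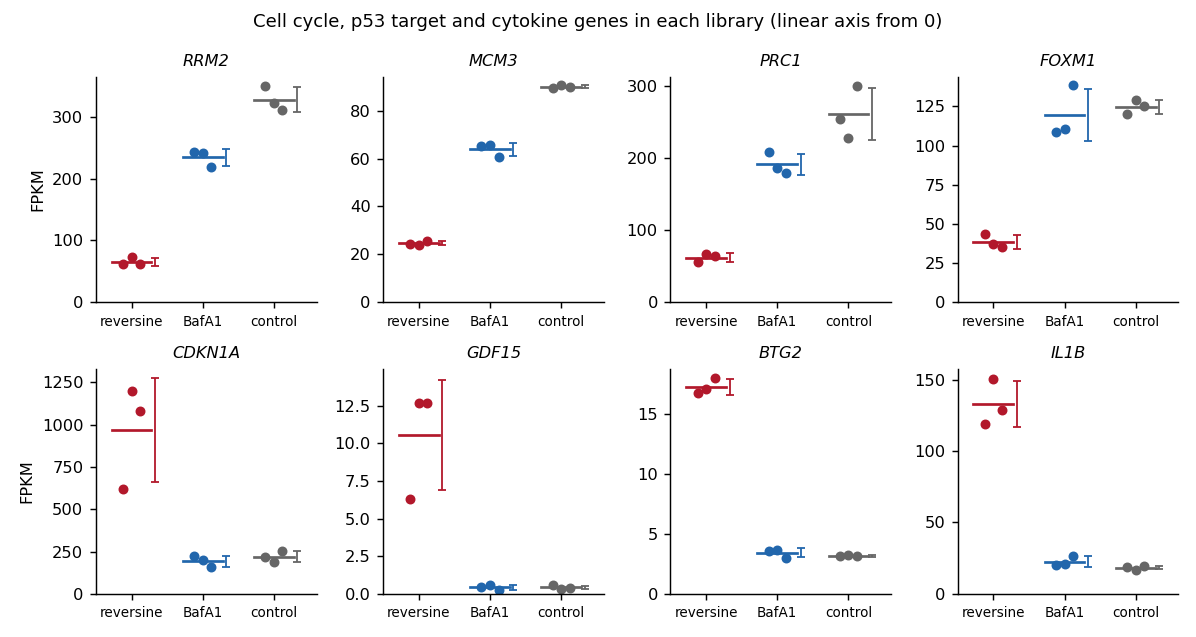
Points are the FPKM of single libraries, with lines at the group mean and bars of ± 1 SD (n = 3). RRM2, MCM3, PRC1 and FOXM1 are lowest after reversine, with BafA1 closer to control, and CDKN1A, GDF15, BTG2 and IL1B are highest after reversine, with BafA1 near the control level.

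Of 25 secreted inflammatory genes, 8 were higher after reversine, 0 were lower and 17 did not pass, with a median of 0.70. The medians were 0.76 for reversine minus control and 0.07 for BafA1 minus control. IL1B (ENSG00000125538), the cytokine interleukin-1 beta, had 119, 151 and 129 FPKM in the reversine libraries, 20.2, 20.8 and 26.7 FPKM in the BafA1 libraries and 19.02, 16.9 and 19.2 FPKM in the controls (log2 difference 2.51, SE 0.15, limma adjusted p 0.00022). IL8 (CXCL8), a neutrophil chemokine, had 30.3, 20.1 and 17.5 FPKM after reversine, 1.06, 0.82 and 2.18 FPKM after BafA1 and 1.33, 0.94 and 1.03 FPKM in untreated cells (log2 difference 3.33, SE 0.44, limma adjusted p 0.00743). Both genes were separated cleanly between the treatments, and BafA1 lay slightly above the controls in IL1B and overlapped them in IL8.

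CCL3, another chemokine, had 13.2 ± 2.97 FPKM after reversine and 0.523 ± 0.271 FPKM after BafA1 (log2 difference 3.21, SE 0.28, limma adjusted p 0.000933), but near-identical copies of this gene exist, between which reads can be divided. CCL2 (5.11 ± 0.525 FPKM after reversine and 1.67 ± 0.523 FPKM after BafA1) and CXCL2 (4.09 ± 0.23 FPKM after reversine and 1.22 ± 0.378 FPKM after BafA1) rose by 1.21 and 1.21 with limma adjusted p of 0.00538 and 0.00512. IL6 had 8.79, 6.72 and 6.76 FPKM in the reversine libraries, 1.94, 2.42 and 2.56 FPKM in the BafA1 libraries and 2, 3.28 and 1.87 FPKM in the controls (log2 difference 1.34, SE 0.21, limma adjusted p 0.0184), and its call was lost without any single library of the 6 (0.0509 to 0.128). The call of IL8 was lost without BafA1 1 (0.0521). Counts in the list were 4 without BafA1 1, 5 without BafA1 2, BafA1 3 or reversine 3, and 4 without reversine 1 and BafA1 3.

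Of 26 interferon response genes, 1 rose, 1 fell and 24 did not pass, with a median of 0.31. Of all protein-coding genes 2.42% were called in either direction. IFI6, a mitochondrial interferon-induced protein, rose (39.9 ± 2.73 FPKM after reversine and 15.1 ± 1.37 FPKM after BafA1, log2 difference 1.35, SE 0.18, limma adjusted p 0.00697). OAS3, a sensor of double-stranded RNA, fell (9.26 ± 1.32 FPKM after reversine and 19.1 ± 3.07 FPKM after BafA1, log2 difference −0.96, SE 0.18, limma adjusted p 0.0432). OAS3 lost its call without each of the 6 libraries in turn (0.072 to 0.217). STAT2, which carries the interferon signal, had 84.02, 71.6 and 60.9 FPKM after reversine, 53.4, 50.9 and 46.5 FPKM after BafA1 and 31.4, 27.4 and 31.8 FPKM in controls (log2 difference 0.50, SE 0.14, limma adjusted p 0.229). The order was the same in all libraries, reversine above BafA1 above control, but the difference between the treatments did not pass. Of 16 complement genes, 4 rose and 0 fell, among them CLU, C1S and CD55 (log2 1.14, 0.95 and 0.67, limma adjusted p 0.0107, 0.0121 and 0.0343). CLU encodes clusterin, C1S a protease of the classical pathway, and CD55 an inhibitor of complement on the cell surface. Each of the 4 calls was lost without at least 1 single library, and 0 remained without reversine 1 and BafA1 3 or without BafA1 1.

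Sterol genes were the largest block that was high after BafA1 with reversine near control. Of 30 genes of cholesterol synthesis and uptake, 13 were lower after reversine, 0 higher and 17 did not pass, with a median of −1.06. Beside it the median was 0.09 for reversine minus control and 1.31 for BafA1 minus control. BafA1 minus control alone called 12 of the 30 higher, against 0.202% of all tested genes.

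INSIG1 (ENSG00000186480), which holds the SREBP complex in the endoplasmic reticulum and is itself an SREBP target, had 49.7, 59.7 and 56.9 FPKM in the reversine libraries, 354, 359.9 and 325 FPKM in the BafA1 libraries and 57.7, 50 and 47.4 FPKM in the controls (log2 difference −2.63, SE 0.12, limma adjusted p 5.56e-05). It had the largest difference downward of all called genes, and the reversine and control libraries overlapped. ACAT2 (ENSG00000120437), which makes acetoacetyl-CoA for the pathway, had 31.9, 28.9 and 31.9 FPKM after reversine, 78.4, 77.9 and 103 FPKM after BafA1 and 39.5, 38.03 and 39.2 FPKM in untreated cells (log2 difference −1.44, SE 0.14, limma adjusted p 0.00149). FDPS (ENSG00000160752), which makes farnesyl diphosphate, had 158, 214 and 212 FPKM in the reversine libraries, 439, 418 and 474 FPKM in the BafA1 libraries and 216, 229 and 218 FPKM in the controls (log2 difference −1.20, SE 0.14, limma adjusted p 0.00418). In both genes every BafA1 library was far above every reversine library and every control, and all reversine libraries were below the controls.

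HMGCS1, an early enzyme of cholesterol synthesis, had 38.6, 27.4 and 22.1 FPKM in the reversine libraries, 106, 95.4 and 160 FPKM in the BafA1 libraries and 14.3, 17.9 and 14.1 FPKM in the controls (log2 difference −1.999, SE 0.32, limma adjusted p 0.018). Its reversine libraries lay between BafA1 and control, and the call was lost without any single library other than reversine 1 (0.0504 to 0.0825). Counts in the list were 5 without BafA1 1 or BafA1 2, 7 without BafA1 3 or reversine 2, and 6 without reversine 1 and BafA1 3.

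Of 20 genes of fatty acid synthesis, 10 were lower after reversine, 0 higher and 10 did not pass, with a median of −0.96. The medians were −0.07 for reversine minus control and 0.73 for BafA1 minus control. SCD (ENSG00000099194), the desaturase that makes oleate, had 209, 162 and 129.5 FPKM in the reversine libraries, 566, 550.2 and 825 FPKM in the BafA1 libraries and 97.2, 96.2 and 101 FPKM in the controls (log2 difference −1.95, SE 0.20, limma adjusted p 0.00234). BafA1 was highest in all libraries, and reversine lay above control in all 3, a difference that did not pass (log2 0.73, limma adjusted p 0.132). The desaturase FADS1 had 73.8 ± 15.9 FPKM after reversine and 184 ± 24.8 FPKM after BafA1 (log2 difference −1.32, SE 0.17, limma adjusted p 0.00636). FADS2, a desaturase of the same pathway, had 184 ± 46.7 FPKM after reversine and 526 ± 32.96 FPKM after BafA1 (log2 difference −1.54, SE 0.20, limma adjusted p 0.00677). ACSS2, which makes acetyl-CoA, and PNPLA3, a lipid droplet lipase, were lower (log2 −1.37 and −1.07, limma adjusted p 0.0183 and 0.0196). Their calls were lost without BafA1 1 (0.0648 and 0.117) or BafA1 2 (0.0597 and 0.0756), and for PNPLA3 also without BafA1 3, reversine 2 or reversine 3 (0.0523 to 0.0812). Counts in the list were 3, 3 and 4 without BafA1 1, 2 and 3, 6, 5 and 4 without reversine 1, 2 and 3, and 3 without reversine 1 and BafA1 3.

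Of 13 genes of LXR and sterol efflux, 1 rose and 12 did not pass, with a median of 0.03. It was ABCA1, the exporter of cholesterol to lipoproteins (5.57 ± 1.30 FPKM after reversine and 1.72 ± 0.191 FPKM after BafA1, log2 difference 1.25, SE 0.20, limma adjusted p 0.0177). ABCA1 lost its call without reversine 2 or any of the BafA1 libraries (0.0888 to 0.0962). NPC1, which exports cholesterol from lysosomes, had 25.2, 35.1 and 35.1 FPKM after reversine, 48.7, 45.1 and 42.2 FPKM after BafA1 and 26.3, 24.2 and 24.5 FPKM in controls, without passing (limma adjusted p 0.324).

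Of 31 hypoxia genes, 8 were lower after reversine, 0 higher and 23 did not pass, with a median of −0.60. The list's median was 0.49 for reversine minus control and 1.23 for BafA1 minus control, with 4 and 10 members called higher (background 0.801% and 0.202%). CA9 (ENSG00000107159), carbonic anhydrase IX, had 7.44, 10.6 and 13.2 FPKM in the reversine libraries, 45.5, 46.5 and 62.4 FPKM in the BafA1 libraries and 4.86, 3.93 and 3.47 FPKM in the controls (log2 difference −2.22, SE 0.28, limma adjusted p 0.00517). Reversine libraries stood between the others: above all controls and below all BafA1 libraries. PFKFB4, a regulator of glycolysis, had 14.9, 26.1 and 21.2 FPKM after reversine, 98.3, 93.1 and 90.8 FPKM after BafA1 and 16.7, 15.6 and 18.7 FPKM in untreated cells (log2 difference −2.16, SE 0.21, limma adjusted p 0.00149). DDIT4, an inhibitor of mTORC1 whose promoter is printed above, had 61.2, 87.7 and 89.5 FPKM in the reversine libraries, 259.8, 268 and 275 FPKM in the BafA1 libraries and 51.3, 46.5 and 55.8 FPKM in the controls (log2 difference −1.76, SE 0.16, limma adjusted p 0.00116). For PFKFB4 the reversine and control libraries overlapped, whereas for DDIT4 they did not.

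MXI1, an antagonist of MYC, and the transcription factor BHLHE40 were above control in both treatments and higher in BafA1. MXI1 had 24.02, 25.7 and 20.1 FPKM in the reversine libraries, 46.97, 43.6 and 43.8 FPKM in the BafA1 libraries and 11.1, 9.71 and 10.5 FPKM in the controls (log2 difference −0.92, SE 0.15, limma adjusted p 0.018). BHLHE40 had 49.4, 47.3 and 42.5 FPKM after reversine, 85.8, 79.6 and 87.03 FPKM after BafA1 and 17.3, 16.4 and 20.6 FPKM in untreated cells (log2 difference −0.85, SE 0.13, limma adjusted p 0.0134). The 3 groups were fully separate in both genes, but MXI1 lost its call without any BafA1 library or reversine 3 (0.0597 to 0.0987) and BHLHE40 without BafA1 1, BafA1 3, reversine 2 or reversine 3 (0.0511 to 0.0701). VLDLR, a lipoprotein receptor, was lower (log2 −1.41, limma adjusted p 0.00524), a call lost without BafA1 1 (0.0501). NDRG1 and VEGFA, commonly read as hypoxia markers, were not called (−1.05 and 0.12, limma adjusted p 0.0757 and 0.948); NDRG1 was nonetheless higher in every BafA1 library than in any reversine library. Counts in the list were 3, 5 and 4 without BafA1 1, 2 and 3, 4 without reversine 3, and 3 without reversine 1 and BafA1 3.

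Of 19 glycolysis genes, 2 were lower and 17 did not pass, with a median of −0.59. These were the enolase ENO2 (150.2 ± 41.8 FPKM after reversine and 405 ± 49.7 FPKM after BafA1, log2 difference −1.46, SE 0.23, limma adjusted p 0.0169) and the isomerase TPI1 (1151 ± 110.2 FPKM after reversine and 1785 ± 225 FPKM after BafA1, log2 difference −0.63, SE 0.09, limma adjusted p 0.0142). ENO2 lost its call without reversine 3 (0.0534), BafA1 1 (0.0892) or BafA1 2 (0.0789), and TPI1 without reversine 2 (0.0604) or BafA1 1 (0.0581). Of 14 iron handling genes 0 were called by limma (2 higher and 2 lower at an unadjusted p under 0.05), with a median of 0.02. TFRC, the transferrin receptor, had 77.9, 84.4 and 84.9 FPKM in the reversine libraries, 158, 135 and 102 FPKM in the BafA1 libraries and 129.5, 90.8 and 113 FPKM in the controls (log2 difference −0.65, SE 0.25, limma adjusted p 0.499). It was lower in every reversine library than in any BafA1 library without passing the test. The ferritin chain FTH1 had 4665 ± 750 FPKM after reversine and 2994 ± 329 FPKM after BafA1 (log2 difference 0.63, SE 0.16, limma adjusted p 0.153).

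**Figure D3:**
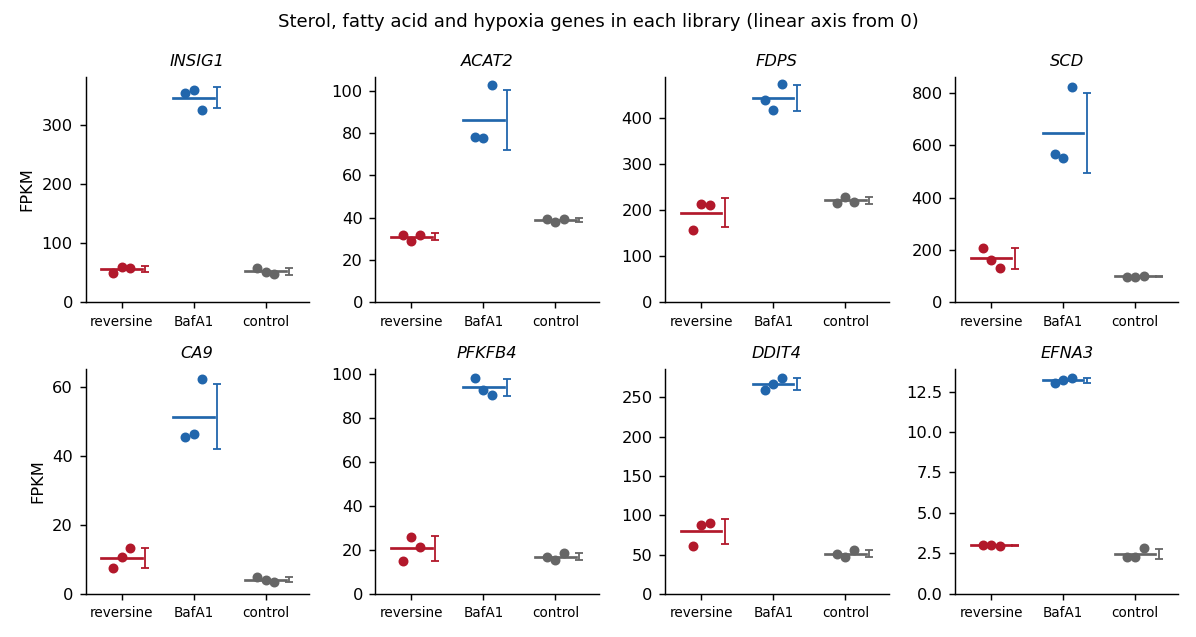
Points are the FPKM of single libraries, with lines at the group mean and bars of ± 1 SD (n = 3). All 8 genes are highest after BafA1. INSIG1 and PFKFB4 overlap between reversine and control, ACAT2 and FDPS are lower after reversine than in control, and SCD, CA9, DDIT4 and EFNA3 are higher after reversine than in control without reaching the BafA1 level.

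Calls among autophagy and lysosome genes were few, but calls were few among all genes too. The background was 1.23% of all tested genes and 2.42% of protein-coding genes. Of the 5 tested LC3 and GABARAP genes, GABARAPL1 rose and 4 did not pass, with a median of 0.75. Of 13 autophagy receptors, 34 genes of the autophagy machinery, 25 lysosomal membrane proteins and 14 MiT/TFE and feedback genes, 0 were called by limma in either direction. At an unadjusted p under 0.05 there were 3 higher and 2 lower receptors, 1 and 1 machinery genes, 2 and 1 membrane proteins and 2 and 2 MiT/TFE genes. Over all 30712 tested genes there were 2295 in either direction. Of 49 lysosomal hydrolases 1 rose and 48 did not pass, and of 23 V-ATPase subunits 2 rose and 21 did not pass. The medians of these lists, from −0.04 to 0.30 outside the LC3 and GABARAP list, lay above the median of all genes (−0.14).

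GABARAPL1 (ENSG00000139112), whose product binds autophagosome membranes, had 65.1, 92.8 and 85.7 FPKM in the reversine libraries, 34.2, 35.1 and 30.8 FPKM in the BafA1 libraries and 17.4, 19.2 and 21.9 FPKM in the controls (log2 difference 1.25, SE 0.17, limma adjusted p 0.00843). The groups were separate, with reversine highest and control lowest. MAP1LC3B, the gene of LC3B, had 93.7, 85.9 and 76.98 FPKM after reversine, 52.9, 48.99 and 48.5 FPKM after BafA1 and 39, 48.3 and 35.5 FPKM in untreated cells and just missed the threshold (log2 difference 0.76, SE 0.16, limma adjusted p 0.0641). SQSTM1, which encodes the receptor p62, had 670.4, 1047 and 943 FPKM in the reversine libraries, 517, 491 and 429.9 FPKM in the BafA1 libraries and 383, 372 and 373 FPKM in the controls (log2 difference 0.87, SE 0.20, limma adjusted p 0.0908). Every reversine library was above every BafA1 library, but reversine 1 was well below the other 2, and without reversine 1 the gene was called (limma adjusted p 0.038). WIPI1, an early autophagy factor, and GPNMB, a target of MITF and TFE3, were above control in every library of both treatments. WIPI1 had 25.97 ± 0.287 FPKM after reversine, 20.5 ± 3.96 FPKM after BafA1 and 10.3 ± 0.429 FPKM in controls. GPNMB had 122 ± 3.03 FPKM after reversine, 93.9 ± 8.34 FPKM after BafA1 and 64.5 ± 1.99 FPKM in controls. Neither was called between the treatments (limma adjusted p 0.656 and 0.134).

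ASAH1, acid ceramidase, was the hydrolase that rose, with 69.3, 72.5 and 60.2 FPKM after reversine, 35.8, 32.7 and 41.1 FPKM after BafA1 and 30.2, 28.1 and 27.8 FPKM in controls (log2 difference 0.87, SE 0.13, limma adjusted p 0.0145). Of the V-ATPase genes ATP6AP2 rose (96.2 ± 5.42 FPKM after reversine and 61.9 ± 5.90 FPKM after BafA1, log2 difference 0.63, SE 0.10, limma adjusted p 0.0168). The membrane subunit gene ATP6V0B rose too (139.6 ± 16.6 FPKM after reversine and 83.4 ± 0.944 FPKM after BafA1, log2 difference 0.73, SE 0.13, limma adjusted p 0.0309). All 3 calls were lost without single libraries, among them BafA1 1 (0.0701, 0.0821 and 0.128) and reversine 2 (0.0717, 0.0781 and 0.117). Cathepsin D (CTSD) had 1426, 3262 and 3437 FPKM in the reversine libraries, 3224, 3251 and 2305 FPKM in the BafA1 libraries and 2432, 2133 and 2329 FPKM in the controls, with reversine 1 lowest of the 9 (log2 difference −0.20, SE 0.39, limma adjusted p 0.948). LAMP1, a lysosomal membrane protein, had 396 ± 103 FPKM after reversine and 316 ± 23.3 FPKM after BafA1 (log2 difference 0.29, SE 0.22, limma adjusted p 0.948), and the transcription factors TFEB and TFE3 differed by −0.31 and 0.05 (limma adjusted p 0.948 and 0.963). TFEB had 92.9 FPKM in control 3 against 22.4 and 19.6 FPKM in the other 2 controls, so its level against control is uncertain.

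**Figure D4:**
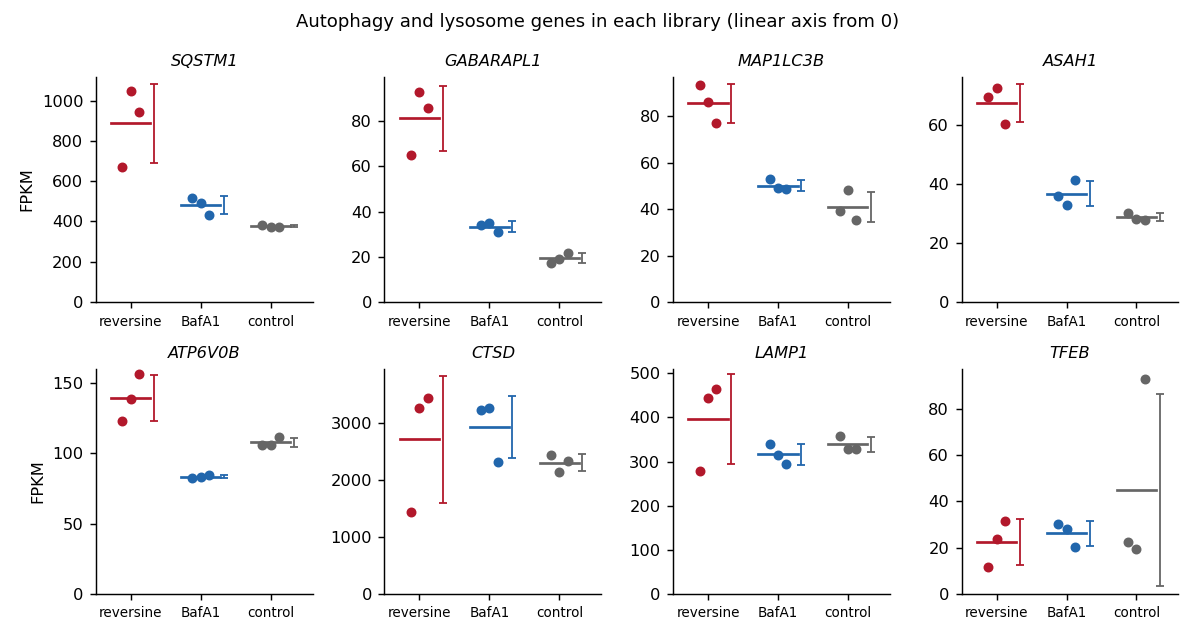
Points are the FPKM of single libraries, with lines at the group mean and bars of ± 1 SD (n = 3). SQSTM1, GABARAPL1, MAP1LC3B and ASAH1 are highest in every reversine library and ATP6V0B is lowest after BafA1, while CTSD, LAMP1 and TFEB overlap between reversine and BafA1.

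Of 34 genes of the amino acid stress list, targets of ATF4 and related factors, 4 rose, 7 fell and 23 did not pass, with a median of −0.09. DDIT3, the transcription factor CHOP, had 67.3, 70.5 and 78.1 FPKM in the reversine libraries, 27.4, 30.2 and 26.3 FPKM in the BafA1 libraries and 20.3, 23.9 and 21.4 FPKM in the controls (log2 difference 1.33, SE 0.14, limma adjusted p 0.00218). ATF3, a transcription factor induced by many stresses, had 15.2, 12.1 and 10.1 FPKM after reversine, 3.93, 4.31 and 3.39 FPKM after BafA1 and 1.95, 2.42 and 2.27 FPKM in untreated cells (log2 difference 1.46, SE 0.23, limma adjusted p 0.0186). PPP1R15A, a phosphatase subunit that reverses the block of translation, rose by 0.83 (limma adjusted p 0.0177). The fourth gene that rose was SESN2, given above. In the other direction PHGDH, the first enzyme of serine synthesis, had 42.8, 65.5 and 73.8 FPKM in the reversine libraries, 194, 188 and 196 FPKM in the BafA1 libraries and 178, 177 and 175 FPKM in the controls (log2 difference −1.69, SE 0.18, limma adjusted p 0.00241). Here BafA1 lay slightly above control, and reversine was far below both. Asparagine synthetase ASNS (−1.22), PSAT1 of serine synthesis (−1.39), MTHFD2 of mitochondrial folate metabolism (−0.80) and the glycine transporter SLC6A9 (−1.01) fell too, beside DDIT4 and VLDLR, with limma adjusted p of 0.00711, 0.0234, 0.0331 and 0.0221. ATF3, PPP1R15A, PSAT1, MTHFD2 and SLC6A9 each lost their call without 4 or more of the 6 libraries in turn (0.0502 to 0.151). The list's counts were 2 higher and 3 lower without BafA1 1, 3 and 4 without BafA1 3, and 3 and 3 without reversine 1 and BafA1 3.

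Of 27 heat shock genes 1 rose and 26 did not pass, with a median of 0.06, beside 2.42% of protein-coding genes called in either direction. It was HSPB8, a small chaperone (41.04 ± 3.98 FPKM after reversine and 14.3 ± 1.38 FPKM after BafA1, log2 difference 1.45, SE 0.15, limma adjusted p 0.00212). HSPA1A had 15.1 ± 2.13 FPKM after reversine and 23.3 ± 5.50 FPKM after BafA1 (log2 difference −0.57, SE 0.25, limma adjusted p 0.666). Of 27 genes of the endoplasmic reticulum response 0 were called by limma (5 higher and 0 lower at an unadjusted p under 0.05), with a median of 0.27. Its chaperone HSPA5 had 226, 181 and 177 FPKM after reversine, 133, 117 and 140 FPKM after BafA1 and 169, 173 and 164 FPKM in controls, higher in each reversine library than in any BafA1 library without passing (log2 difference 0.58, SE 0.15, limma adjusted p 0.179). Of 21 NRF2 targets, HMOX1 (ENSG00000100292), heme oxygenase, rose and 20 did not pass, with a median of 0.17. HMOX1 had 73.3, 105 and 98.2 FPKM in the reversine libraries, 16.02, 13.1 and 15.7 FPKM in the BafA1 libraries and 28.6, 35.8 and 37.5 FPKM in the controls (log2 difference 2.54, SE 0.19, limma adjusted p 0.000481), so reversine was above every control and BafA1 below every control. The other 20 included TXNRD1 (0.32, limma adjusted p 0.0693) and GCLM (0.90, limma adjusted p 0.0776).

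HMOX1 was one of several genes that were lower after BafA1 than in control, and this gave some of the widest gaps. SERPINB2 (ENSG00000197632), an inhibitor of plasminogen activators, had 87.3, 70.2 and 72.2 FPKM in the reversine libraries, 4.15, 5.45 and 4.76 FPKM in the BafA1 libraries and 31.1, 29.5 and 30.3 FPKM in the controls (log2 difference 3.74, SE 0.20, limma adjusted p 0.000131), the largest difference upward. Its level after reversine was above and its level after BafA1 below every control (log2 1.30 and −2.44, limma adjusted p 0.0115 and 0.00148). PLAU, the urokinase plasminogen activator, had 379.7 ± 70.9 FPKM after reversine and 181 ± 7.15 FPKM after BafA1 (log2 difference 1.04, SE 0.16, limma adjusted p 0.0151), a call lost without any single library except reversine 1 (0.0554 to 0.0774). Tissue factor F3 had 232, 169 and 165 FPKM in the reversine libraries, 54.2, 48.8 and 57.3 FPKM in the BafA1 libraries and 131, 142 and 129 FPKM in the controls (log2 difference 1.78, SE 0.21, limma adjusted p 0.00376). In F3 the BafA1 libraries were below all controls and the reversine libraries above them. KRTAP2-3, a keratin-associated protein, has 2 entries, near-identical copies between which reads can be divided. They differed by 2.92 and 2.89 on the log2 scale, and the entry with 2.89 had 12.1, 23.9 and 23.6 FPKM in the reversine libraries, 2.17, 2.50 and 0.79 FPKM in the BafA1 libraries and 13.9, 14.5 and 16.8 FPKM in the controls.

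Of 37 extracellular matrix genes 2 rose, PLAU among them, with 0 lower and a median of 0.23, beside 2.42% of protein-coding genes called in either direction. Of 18 YAP and TAZ targets F3 and CYR61 were higher and AXL was lower after reversine than after BafA1. The mean of CYR61 after reversine was below that of the controls. CYR61, a matricellular protein, had 275 ± 40.6 FPKM after reversine, 179 ± 13.2 FPKM after BafA1 and 328 ± 1.69 FPKM in controls (log2 difference 0.60, SE 0.12, limma adjusted p 0.0494). AXL, a receptor kinase, had 121 ± 8.79 FPKM after reversine, 199 ± 23.7 FPKM after BafA1 and 274 ± 26.02 FPKM in controls (log2 difference −0.71, SE 0.12, limma adjusted p 0.0198). Both calls were lost without 5 of the 6 libraries in turn, CYR61 keeping its call without reversine 1 and AXL without BafA1 3. CTGF, a close relative of CYR61, had 199.9, 371 and 363 FPKM after reversine and 218, 198 and 149 FPKM after BafA1 (log2 difference 0.68, SE 0.28, limma adjusted p 0.559), and the libraries overlapped through reversine 1.

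In the BMP and ID list 2 genes rose, 2 fell and 10 did not pass. BMP2, a secreted ligand of the BMP family, had 4.61, 4.81 and 4.02 FPKM in the reversine libraries, 0.43, 0.4 and 0.36 FPKM in the BafA1 libraries and 0.37, 0.5 and 0.8 FPKM in the controls (log2 difference 1.97, SE 0.13, limma adjusted p 0.000296). GREM1, a secreted antagonist of BMPs, had 90.7, 102 and 83.3 FPKM after reversine, 33.03, 28.2 and 28.9 FPKM after BafA1 and 70.3, 76.8 and 82.1 FPKM in untreated cells (log2 difference 1.58, SE 0.15, limma adjusted p 0.00137), so reversine lay slightly above and BafA1 well below every control. ID1 and ID3, transcriptional inhibitors induced by BMP signals, fell (65.9 ± 16.8 FPKM after reversine and 130.1 ± 6.48 FPKM after BafA1 for ID1, and 61.4 ± 5.995 FPKM after reversine and 104 ± 7.95 FPKM after BafA1 for ID3). Their limma adjusted p were 0.0449 and 0.00903, and ID1 lost its call without each library except reversine 1 (0.0703 to 0.182). Of 19 immediate early genes 5 rose and 0 fell. The transcription factor EGR1 had 6.18 ± 0.94 FPKM after reversine and 1.39 ± 0.228 FPKM after BafA1 (log2 difference 1.59, SE 0.12, limma adjusted p 0.000495). The phosphatase gene DUSP1 (0.90), the AP-1 subunits FOSB (0.77) and JUNB (1.22), and ATF3 were the others. The limma adjusted p of DUSP1, FOSB and JUNB were 0.00327, 0.00714 and 0.0151. Counts were 3 without any of the BafA1 libraries or reversine 2, and JUNB lost its call without each library except reversine 1 (0.0554 to 0.0795).

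**Figure D5:**
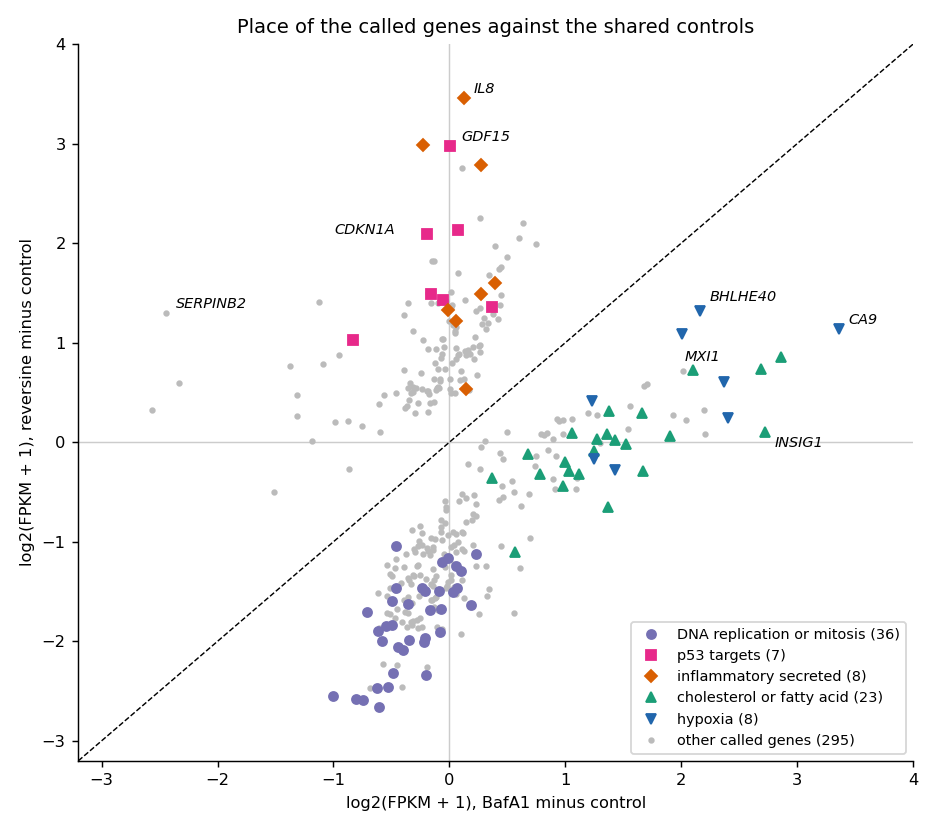
Each point is 1 of the 377 called genes; the vertical axis is the log2(FPKM + 1) difference of reversine from control and the horizontal axis that of BafA1 from the same controls, so the axes are not independent. Genes above the dashed line of equality were higher after reversine. Cell cycle genes lie low near the vertical axis (RRM2 at −2.32 and −0.48), and p53 and inflammatory genes high near it. Sterol genes lie to the right near the horizontal axis, and hypoxia genes to the right with some of them, such as CA9, above that axis.

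The place of the calls against control can be counted. Of the 136 genes higher after reversine, all reversine libraries were outside the range of the controls in 129 and all BafA1 libraries in 71. Of the 241 lower, the numbers were 199 and 160. Outside means above or below the controls, and the share over all tested genes was not counted. These genes were also chosen for a difference between the treatments, so the numbers only describe the calls. In the fit, reversine minus control called 642 genes (2.09%) and BafA1 minus control 81 (0.264%), with shared controls.

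The median of the ribosome biogenesis list was −0.35 for reversine minus control and −0.52 for BafA1 minus control, and 0.15 between them. Of 29 genes RRS1, a factor of the large subunit, was higher after reversine than after BafA1 and 28 did not pass. Of all protein-coding genes 2.42% were called in either direction. RRS1 had 41.1, 38.4 and 40.05 FPKM in the reversine libraries, 20.98, 18.9 and 18.1 FPKM in the BafA1 libraries and 57.5, 53.5 and 59.5 FPKM in the controls (log2 difference 1.01, SE 0.12, limma adjusted p 0.00376). BafA1 was lowest in all libraries and control highest. Of 73 ribosomal proteins, 42 nuclear genes of the respiratory chain, 32 proteasome subunits, 20 tRNA synthetases, 10 metallothionein genes and 8 TRiC subunits, 0 were called by limma, with medians from −0.11 to 0.13. At an unadjusted p under 0.05 these lists held 1 higher gene, a metallothionein, and 5 lower ones, 1 ribosomal protein, 2 tRNA synthetases and 2 TRiC subunits. Of 13 genes encoded by mitochondrial DNA, 4 rose and 9 did not pass, with a median of 0.71. MT-ND1 had 3394, 2409 and 2610 FPKM after reversine, 1669, 1383 and 1390 FPKM after BafA1 and 1162, 1249 and 1230 FPKM in untreated cells (log2 difference 0.91, SE 0.13, limma adjusted p 0.0114). Reversine 1 was highest, and in that library these 13 genes held 9.004% of the summed FPKM, against 4.75% and 5.41% in reversine 2 and 3, 2.56% to 4.13% after BafA1 and 2.89% to 5.57% in controls. The 4 calls, MT-ND1, MT-CO1, MT-CO2 and MT-ND2, were all lost without BafA1 2 (0.0595 to 0.125) or BafA1 3 (0.0575 to 0.0944), and the part of library composition in them was not tested.

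Of the arrestin domain and MondoA list, ARRDC4 rose, MXI1 and MXD3 fell and 10 of 13 did not pass. MXD3, a partner of MAX expressed in cycling cells, had 11.03 ± 3.44 FPKM after reversine and 46.7 ± 0.437 FPKM after BafA1 (log2 difference −2.03, SE 0.30, limma adjusted p 0.0121). TXNIP, an inhibitor of thioredoxin, had 36.2, 26.8 and 26.3 FPKM in the reversine libraries, 16.1, 15.2 and 19.5 FPKM in the BafA1 libraries and 6.37, 6.28 and 5.19 FPKM in the controls (log2 difference 0.77, SE 0.24, limma adjusted p 0.299), above control in both treatments. MXD3 lost its call without reversine 2 or any BafA1 library (0.0547 to 0.0664), and ARRDC4, at 1.29 ± 0.308 FPKM after reversine and 0.31 ± 0.0916 FPKM after BafA1, without each of the 6 (0.0575 to 0.191).

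Lists held 126 of the called genes, and 251 stood outside them. The following were chosen from these after their values were seen, for their size and because no single library decided their call. Lamin B1 (LMNB1), of the nuclear envelope, had 28.6, 31.6 and 29.9 FPKM in the reversine libraries, 112, 92.2 and 114 FPKM in the BafA1 libraries and 149, 132 and 156 FPKM in the controls (log2 difference −1.78, SE 0.12, limma adjusted p 0.000296). The histone variant gene H2AFZ had 224, 249 and 262 FPKM after reversine, 587, 603 and 651 FPKM after BafA1 and 789, 842 and 774 FPKM in untreated cells (log2 difference −1.32, SE 0.08, limma adjusted p 0.000155). Both were below BafA1 and control in every reversine library, and in both BafA1 lay below control. The centromere factor HJURP (−1.50), CDCA3 (−1.93), GTSE1 (−1.82), the cell cycle kinase CDK2 (−1.19) and the histone chaperone subunit SSRP1 (−0.97) were lower as well, with limma adjusted p of 0.000498, 0.000532, 0.00116, 0.00512 and 0.00215.

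RAB20, a small GTPase of endosomes and one of the 8 lowest genes, was high after BafA1 and near control after reversine, with 1.41, 1.01 and 1.93 FPKM in the reversine libraries, 9.14, 8.99 and 10.6 FPKM in the BafA1 libraries and 1.61, 1.43 and 0.88 FPKM in the controls (log2 difference −2.12, SE 0.18, limma adjusted p 0.000714). EFNA3, an ephrin ligand, had 3.01, 3.02 and 2.98 FPKM after reversine, 13.03, 13.2 and 13.3 FPKM after BafA1 and 2.26, 2.28 and 2.81 FPKM in untreated cells (log2 difference −1.82, SE 0.22, limma adjusted p 0.00512). The fucosyltransferase FUT11 (−1.56) and ANKZF1, a factor of ribosome quality control (−1.11), showed higher values in BafA1 than in reversine too (limma adjusted p 0.0015 and 0.00452). In these 4 genes the BafA1 libraries exceeded all controls.

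Among the higher genes the smooth muscle actin gene ACTA2 had 72.1, 95.2 and 96.2 FPKM in the reversine libraries, 27.8, 27.5 and 25.03 FPKM in the BafA1 libraries and 37.2, 36.7 and 32.5 FPKM in the controls (log2 difference 1.67, SE 0.14, limma adjusted p 0.000786). The histone gene HIST1H2BK had 95.3, 126 and 128 FPKM after reversine, 26.3, 37.1 and 25.1 FPKM after BafA1 and 24.6, 33.3 and 40.1 FPKM in untreated cells (log2 difference 1.95, SE 0.22, limma adjusted p 0.0031). In both genes all reversine libraries stood above all others. The tetraspanin CD82 (1.50), the growth factor binding protein IGFBP5 (1.76) and the cystatin CST2 (2.64), a protease inhibitor among the 8 highest genes, rose with limma adjusted p of 0.00636, 0.00473 and 0.000532. PTX3, a secreted pattern recognition protein, had 152, 141 and 121 FPKM in the reversine libraries, 38.4, 33.9 and 42.4 FPKM in the BafA1 libraries and 73.7, 76.02 and 74.3 FPKM in the controls (log2 difference 1.83, SE 0.17, limma adjusted p 0.00116). TMEM158 had 124, 199 and 194 FPKM after reversine, 46.04, 37.8 and 30.4 FPKM after BafA1 and 101, 91.4 and 105 FPKM in untreated cells (log2 difference 2.13, SE 0.24, limma adjusted p 0.00297). In PTX3, TMEM158 and the activin subunit INHBA (67.5 ± 7.35 FPKM after reversine and 28.96 ± 2.21 FPKM after BafA1, 67.3 ± 9.91 FPKM in controls) BafA1 lay below every control, as in SERPINB2.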

How the data were processed

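RNA of 12 libraries of hTERT-RPE1 cells, 3 per group, had been sequenced, and the authors deposited 1 table of FPKM values per gene and library. The submitters' processing notes name RSEM 1.2.6, Bowtie 1.0.0 and the build hg19, with no parameters. The column header gives no unit, and FPKM was taken from those notes and from the values, so that depth is unknown and no counting interval is given. Strand and treatment of near-identical genes are not given in the sources used here. FPKM adjusts each library for its total, so very abundant genes can lower the values of all others.

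Groups were taken from the labelled treatments. Genes with at least 1 FPKM in 3 or more libraries were tested on log2(FPKM + 1) with limma 3.58.1 in R 4.3.3, as 4 group means with an intensity trend in the prior variance, and with Benjamini-Hochberg adjustment over 30712 rows. Residual degrees of freedom were 8. The script was tested on simulated data. Named genes were the 8 highest and 8 lowest called genes whose groups did not overlap and whose mean reached 2 FPKM, up to 5 members of each list by adjusted p, and a fixed set of genes; list members outside this rule and the genes of the last 3 paragraphs of results were chosen after their values were seen. The comparison, members and lists were chosen with earlier results of these data known. GC content and length came from GENCODE v29 for 25349 tested rows (82.5%), matched by ID. Genes that share a symbol, 8329 rows, may divide reads. Alternatives were another pseudocount, other filters, median-ratio and equal-total scaling, the 6 libraries alone, no MG132, library weights, GC and length correction, and each library left out. The MG132 comparisons were left out. Results of some called genes are not reported here.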

Additional observations from a re-analysis of the deposited data

How the results depend on the processing

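All 377 genes called between reversine and BafA1 kept their sign in every alternative in which they were tested, which was 298 genes at a minimum of 5 FPKM and 354 under GC correction. For most alternatives this was fixed in advance, because the reversine and BafA1 libraries did not overlap in any of the 377. Only the scalings and the GC and length corrections could have reversed a sign. The number of calls was not stable. Calls were 408 with a pseudocount of 0.1, 326 without a filter, 338 at a minimum of 5 FPKM and 342 with median-ratio scaling, against 377. They were 49 (40 higher, 9 lower) with equal totals, 2 (2 and 0) for the 6 libraries alone, 217 (87 and 130) without MG132, 171 (80 and 91) without the 4 libraries whose values fell with GC content, 2622 (1150 and 1472) with library weights and 50 (18 and 32) with GC and length correction. Of 2 alternatives chosen after seeing the data, the same correction with its trend from genes of at least 5 FPKM gave 771 (294 and 477), and leaving out reversine 1 and BafA1 3 gave 179 (74 and 105). With 1 library left out the calls were 142 to 317, the higher ones 59 to 147 and the lower ones 83 to 170. Without 1 library, 131 of the 377 genes kept their call in all 6 fits and 246 lost it in at least 1.

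Reversine minus control had 642 calls, and 181 with equal totals, 3076 with library weights, 78 with GC and length correction and 1518 with the trend from genes of at least 5 FPKM. BafA1 minus control had 81, and 8, 1351, 39 and 268 under the same settings, 37 without MG132 and 44 without the 4 GC-falling libraries. With 1 library left out these were 336 to 584 and 22 to 132. The cause of these differences was not tested. Among named genes 0 called values reversed, and 76 values of genes called under neither setting changed sign. Medians of lists near 0, among them those of MiT/TFE genes, TRiC, tRNA synthetases and ribosomal proteins, changed sign with the scaling, since median-ratio scaling moved the median of all genes to −0.08 and equal totals to 0.03.

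No paired analysis was possible because the labels give no replicate numbers. The prior degrees of freedom were 1.26, so most of the spread was estimated from 8 residual degrees of freedom. Read counts are unknown, which leaves the precision of values near 1 FPKM unknown too.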
